A study of Mus musculus with 38 samples.

Results

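Interphase zygotes were examined through 6 of the 36 mouse libraries that carry values: 3 libraries of polysome-bound RNA (P) and 3 libraries of non-polysome RNA (NP), chosen by their labels and carrying the replicate letters B, C and D. The series labels hold 38 samples, and the libraries lettered A of both zygote fractions were not analysed here. Females were ICR mice of a minimum age of 6 weeks, primed with pregnant mare serum gonadotropin and then human chorionic gonadotropin before mating with ICR males. The embryos, labelled WT, were taken from the oviducts at the pronuclear stage and were collected at isolation, whereas M-phase zygotes were treated with nocodazole. Embryos were exposed to cycloheximide, which freezes ribosomes on the mRNA, and were lysed and spun through a sucrose gradient. Each gradient gave 10 fractions, of which the 5 light ones were pooled as NP and the 5 heavy ones as P. The number of embryos behind a library is not given in the sources used here, and the letters are described as biological triplicates without a statement that a letter marks 1 gradient. MII eggs, matured in culture to the second meiotic metaphase, and M-phase zygotes, each with 3 P and 3 NP libraries, serve as the comparison stages.

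After fertilization the mouse zygote makes almost no new RNA, so the proteins of the first cell cycle come largely from mRNA laid down in the oocyte. An mRNA carrying many ribosomes sediments fast and is collected in the heavy fractions, whereas free mRNA and mRNA stored with proteins stay in the light ones. Maternal mRNAs can move between these pools when their poly(A) tails are lengthened or shortened in the cytoplasm, and the sequences that direct this lie near the 3′ end. What was measured is sedimentation, and ribosomes on an mRNA were not counted. In such bulk samples, fewer cells of a type and less RNA per cell cannot be told apart.

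Values were deposited as FPKM, fragment numbers scaled to transcript length and library size, so that a value is a share of its own library and not an amount of RNA. Summed FPKM ran from 88982 to 96766 in P and from 108748 to 117449 in NP, and the read depth is unknown because the values hold no counts. Between 4556 and 4630 genes lay above 1 FPKM in P and between 5008 and 5014 in NP. Across genes, Pearson correlations of log2 values were 0.951 to 0.956 between P libraries, 0.825 to 0.852 between NP libraries and 0.793 to 0.850 between fractions, so the NP replicates were nearly as far from each other as from P. The median SD of a gene was 0.25 in P and 0.49 in NP on the log2 scale. All 15 oocyte and zygote markers passed the filter on low values, with summed levels of 2493 to 2771 FPKM in P and 3420.4 to 3596 FPKM in NP. None of the 14 cumulus and granulosa cell markers in the table passed it, and their sums were 0.471 to 0.566 FPKM in P and 0.147 to 1.34 FPKM in NP. Sperm markers summed to 3.82 to 4.25 FPKM in P and 2.7 to 4.34 FPKM in NP, oviduct markers to 3.46 to 5.03 FPKM in P and 2.2 to 4.35 FPKM in NP and blood cell markers to 0.231 to 0.552 FPKM in P and 0.163 to 3.86 FPKM in NP, and 2, 3 and 1 of them passed the filter. Of the 3 oviduct markers tested, Tppp3 was lower in P (-3.65, adjusted p = 0.0294), Cdh1 higher (1.16, adjusted p = 0.0168) and Krt8 not called.

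The first question was which mRNAs were richer in the heavy and which in the light fractions of the interphase zygote. Messages for the anaphase activator Cdc20, for oocyte genes such as Omt2a and Obox5, and for 32 of 75 tested subunits of the respiratory chain were lower in P than in NP. Higher in P were a smaller number of messages, among them Zfp57, a zinc-finger protein that preserves DNA methylation at imprinted genes, Nobox, an oocyte transcription factor, and G6pdx, the first enzyme of the pentose phosphate pathway. Of 9664 genes tested, 1550 (16.0%) were called at a limma adjusted p under 0.05 and a difference beyond 1 on the log2 scale, 352 (3.64%) higher in P and 1198 (12.4%) lower in P. The values of all 3 P libraries lay above all 3 NP libraries in 1500 genes (15.5%) and below them in 2685 (27.8%). The median difference over all genes was -0.15, and centring each library on its own median moved it by 0.28 to 0.13. Under that centring the calls split into 699 higher and 758 lower, and under quantile normalization into 752 higher and 844 lower, so that the excess of lower calls moved with the scaling. Each group of genes below is therefore read against the median of all genes and against the shares of all genes called, 3.64% higher and 12.4% lower.

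Cdc20, which switches on the anaphase promoting complex at the metaphase to anaphase transition (chr4:118432901-118437352 in GRCm38), measured 2.02, 3.37 and 1.65 FPKM in P and 34, 47.2 and 43 FPKM in NP. The values did not overlap, and the P level was 18.3-fold lower. The log2 difference of P minus NP was -4.19 ± 0.29 (SE, n = 3 per fraction, limma adjusted p = 0.00140). D6Ertd527e (chr6:87104746-87112997), an oocyte-expressed transcript annotated as protein coding in the table, measured 3.33, 3.78 and 1.94 FPKM in P and 71.9, 77.2 and 83.2 FPKM in NP. It stood 26.6-fold lower in P, with a log2 difference of -4.74 ± 0.26 (SE) and an adjusted p of 0.00105. Obox5 (chr7:15750131-15759800), an oocyte homeobox gene, measured 6.05, 5.31 and 5.05 FPKM in P and 75.9, 99.5 and 60.9 FPKM in NP. Its P libraries were tight and all far below NP, a 14.1-fold difference (-3.82 ± 0.21 on the log2 scale, SE, adjusted p = 0.00105). Obox genes are a family of near-identical copies, and reads shared among them make the level of a single copy uncertain.

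Romo1 (chr2:156144039-156145797), a small protein of the mitochondrial inner membrane, measured 4.09, 1.98 and 4.5 FPKM in P and 49.6, 28.1 and 34.9 FPKM in NP. Psmb3 (chr11:97703399-97713500), a subunit of the 20S proteasome core, measured 2.69, 1.56 and 2.49 FPKM in P and 36.2, 14.6 and 22 FPKM in NP. Both were lower in P without overlap, with differences of -3.46 and -3.37 on the log2 scale (adjusted p = 0.00395 and 0.00407). Exosc6 (chr8:111056339-111057664), a subunit of the RNA exosome, measured 0.010, 0.314 and 0.010 FPKM in P and 14.9, 24.4 and 25.4 FPKM in NP. In 2 of its 3 P libraries it stood at the offset of 0.01 that the table carries or just above it (0.010055). Its fitted difference of -9.37 therefore depends on that offset and no fold is given. 

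In the other direction, Zfp57 (chr17:37001163-37010635) measured 185, 177 and 203 FPKM in P and 45.6, 62.9 and 37.9 FPKM in NP. It was 3.94-fold higher in P, with a log2 difference of 1.98 ± 0.20 (SE, adjusted p = 0.00350). G6pdx (chrX:74409483-74429194) measured 159, 129 and 154 FPKM in P and 43.1, 47.7 and 33.6 FPKM in NP. Its P and NP libraries were separated by a wide gap, and the fold was 3.58-fold in favour of P (adjusted p = 0.00292). Sars (chr3:108424865-108445209), which charges tRNA with serine, measured 16.2, 18.1 and 16 FPKM in P and 4.92, 6.54 and 4.84 FPKM in NP, 3.11-fold higher in P (adjusted p = 0.00395). Klf17 (chr4:117757836-117765648), a Kruppel-like transcription factor of the early embryo, measured 361, 279 and 295 FPKM in P and 82.1, 167 and 93 FPKM in NP. Pja1 (chrX:99465734-99471273), a RING-type ubiquitin ligase, measured 20.2, 22.2 and 23.8 FPKM in P and 2.35, 9.53 and 5.67 FPKM in NP. Lipt1 (chr1:37871738-37876228), a lipoyltransferase, measured 35.1, 41 and 39.1 FPKM in P and 6.52, 17.5 and 9.82 FPKM in NP. In these last genes NP C was the highest NP library, and P stood 2.86-fold, 4.38-fold and 3.69-fold higher (adjusted p = 0.0132, 0.0246 and 0.0131). Their calls were lost when 1 library was left out: Klf17 without P B (adjusted p = 0.0545), Lipt1 without P C (0.0544) and Pja1 without P B (0.0763), P C (0.0808), P D (0.0814) or NP D (0.0518). With all 36 libraries sharing 1 estimate of the spread, every gene of this paragraph lost its call (Zfp57 adjusted p = 0.281, G6pdx 0.906).

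**Figure D1:**
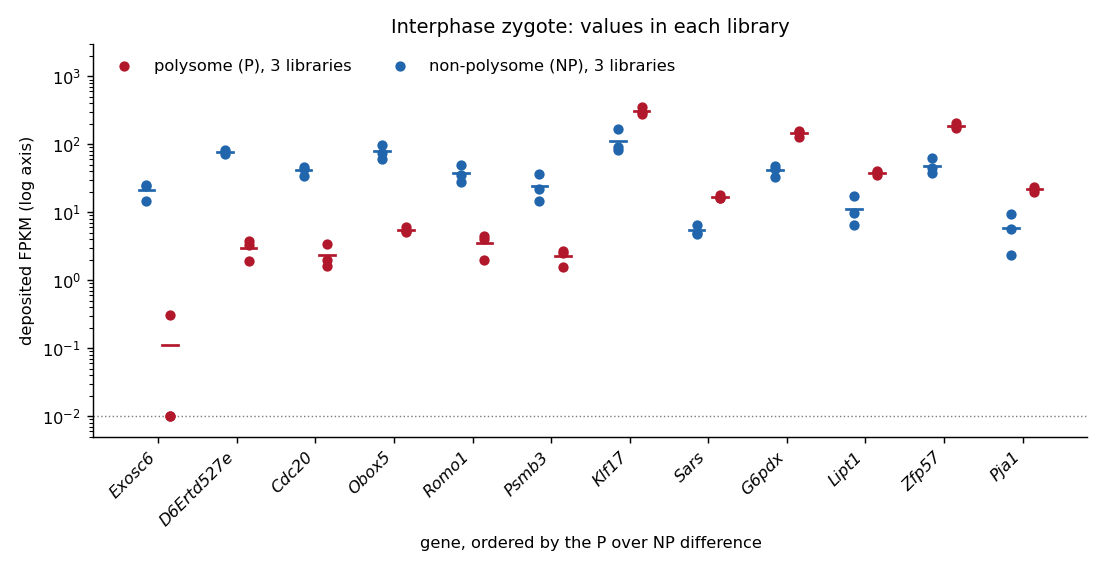
Deposited FPKM on a log axis in the 3 P (red) and 3 NP (blue) libraries of interphase zygotes for the 6 genes with the lowest and the 6 with the highest P over NP difference among called protein-coding genes whose mean reached 10 FPKM; short lines are means and the dotted line is the offset of 0.01. No gene has overlapping fractions, which the choice of genes required, and Exosc6 lies at or just above the offset in 2 P libraries.

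Genes of cell division were asked next, since the zygote is between meiosis and its first mitosis. Anaphase and checkpoint genes were mostly at or below the general level in P. Of 31 tested, 1 was higher, 9 (29.0%) were lower and 21 were not called, with a median of -0.60 against -0.15 for all genes. Besides Cdc20, Mad2l1bp, the binding partner of the checkpoint protein Mad2, measured 2.73, 1.82 and 2.09 FPKM in P and 16.9, 13.9 and 9.02 FPKM in NP, 5.88-fold lower in P (adjusted p = 0.00407). Pttg1 and Mad2l1 were picked with their values in view. Pttg1, the securin that holds separase inactive, measured 259, 105 and 232 FPKM in P and 1532, 674 and 805 FPKM in NP, 5.09-fold lower in P (adjusted p = 0.0135). Mad2l1 itself measured 3.95, 3.73 and 3.91 FPKM in P and 24, 22.1 and 10.4 FPKM in NP, with its 3 P libraries alike and all below NP (-2.19 on the log2 scale, adjusted p = 0.00740). The single member called higher was Anapc5, a scaffold subunit of the anaphase promoting complex, at 8.08, 8.65 and 8.89 FPKM in P and 2.36, 4.14 and 2.11 FPKM in NP (3.11-fold higher in P, adjusted p = 0.0107).

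Cyclins, kinases and genes of mitotic entry had a median of -0.02, or 0.26 after median centring, which is above that of all genes, yet 9 of 41 (22%) were called lower in P, against 12.4% of all genes, and 1 (2.44%) higher, against 3.64%. After median centring 4 were called lower and 4 higher. Cks2, a small Cdk-binding protein, measured 1.23, 1.02 and 1.31 FPKM in P and 18.5, 17.6 and 12 FPKM in NP, 13.4-fold lower in P (log2 difference -3.74 ± 0.23, SE, adjusted p = 0.00112). Its paralog Cks1b measured 22.4, 17.7 and 25.3 FPKM in P and 177, 109 and 84.6 FPKM in NP (5.46-fold lower, adjusted p = 0.00448). Ccna2, the cyclin of S phase and mitotic entry, measured 5.9, 6.19 and 5.69 FPKM in P and 18.8, 22.8 and 11.1 FPKM in NP, and its call (adjusted p = 0.0130) was lost without P B (0.0527), P C (0.0504) or P D (0.0507). E2f4, a repressor of cell cycle genes, was higher at 13.9, 11.6 and 12.2 FPKM in P and 6.64, 5.14 and 4.8 FPKM in NP (adjusted p = 0.00782). By contrast Ccnb1, the mitotic cyclin, measured 121, 86.6 and 97 FPKM in P and 97, 96.7 and 61.1 FPKM in NP, and its fractions overlapped (0.28 ± 0.23, SE, adjusted p = 0.427). Mos, the kinase that keeps the egg in metaphase, measured 70.6, 87.9 and 87 FPKM in P and 76.2, 71.9 and 84.1 FPKM in NP, again overlapping and with a difference of 0.08 ± 0.14 (SE, adjusted p = 0.729). Aurka, a spindle kinase named after its values were seen, measured 57.4, 55 and 53.7 FPKM in P and 36.6, 45.5 and 32.5 FPKM in NP, which did not overlap but stayed within 1 on the log2 scale (0.55, adjusted p = 0.0479).

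The first S phase runs during the pronuclear stage, and 53 genes of DNA replication were tested. Their median of -0.10, which became 0.17 after median centring, was close to that of all genes, and 2 (3.77%) were higher and 9 (17.0%) lower in P, against 3.64% and 12.4% of all genes. Orc6, a subunit of the origin recognition complex, measured 1.56, 1.22 and 1.51 FPKM in P and 6.48, 12.4 and 8.7 FPKM in NP (6.25-fold lower in P, adjusted p = 0.00381). Slbp, which binds the stem-loop of replication-dependent histone mRNAs, measured 22.3, 21.2 and 22.2 FPKM in P and 65.1, 74.8 and 50.7 FPKM in NP (2.86-fold lower, adjusted p = 0.00407). In both, every P library was below every NP library. Gmnn, the licensing inhibitor geminin, was named after its values were seen and measured 0.650, 0.553 and 0.598 FPKM in P and 4.98, 5.96 and 2.74 FPKM in NP (7.23-fold lower, adjusted p = 0.00432). Pcna, the sliding clamp, measured 2.32, 2.42 and 3.14 FPKM in P and 5.17, 4.95 and 5.67 FPKM in NP, a difference at the fold limit (-1.01, adjusted p = 0.0149) that was not called without P B, P C or NP D and that fell within the limit after quantile normalization or median centring.

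Oocyte-specific messages, which serve the egg and the first divisions, were lower in P more often than higher. Of 37 tested, 17 (45.9%) were lower and 2 (5.41%) higher in P, with a median of -0.78, which was -0.50 after median centring and -0.42 after quantile normalization, where the medians of all genes were 0.13 and 0.07. Omt2a, an oocyte maturation transcript, measured 26, 20.2 and 24.5 FPKM in P and 213, 198 and 122 FPKM in NP, 7.36-fold lower in P (log2 difference -2.88 ± 0.23, SE, adjusted p = 0.00201). E330034G19Rik, an oocyte-expressed gene, measured 7.12, 7.83 and 8.2 FPKM in P and 70.6, 75.9 and 40.5 FPKM in NP, 7.8-fold lower (adjusted p = 0.00230). Each showed a narrow P group and NP values several times higher. Bcl2l10, an apoptosis regulator of the Bcl2 family that is abundant in mouse oocytes, and H1foo, the oocyte linker histone, were named with their values in view. Bcl2l10 measured 379.6, 393 and 433 FPKM in P and 1784, 1322 and 1141 FPKM in NP. H1foo measured 68.6, 85.9 and 84.6 FPKM in P and 227, 190.0 and 179 FPKM in NP (-1.79 and -1.32 on the log2 scale, adjusted p = 0.00350 and 0.00430), and H1foo fell within the fold limit after quantile normalization (-0.97). The 2 members called higher were Oas1c, an oocyte-expressed member of the oligoadenylate synthetase family, at 311, 341 and 364 FPKM in P and 119, 148 and 112 FPKM in NP, and Nobox at 179.9, 164 and 184 FPKM in P and 67.5, 59.8 and 73.6 FPKM in NP (2.69-fold and 2.63-fold higher, adjusted p = 0.00350 and 0.00259). Copies of the Tcl1b, Omt2, Oas1 and Oog families share reads, so the levels of single members are uncertain. Several of the 17 lower members are such copies, so shared reads can enter the count of lower calls more than once.

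Of the growth factors and egg coat genes named here, none was called. Gdf9, a growth factor that the oocyte sends to its follicle cells, measured 364, 304 and 329 FPKM in P and 333, 258 and 312 FPKM in NP. Bmp15, its partner, measured 489, 467 and 475 FPKM in P and 391, 451 and 405 FPKM in NP. Gdf9 overlapped between fractions and Bmp15 was slightly above NP in all P libraries, and neither was called (0.15 and 0.20, adjusted p = 0.491 and 0.215). Zp3, the sperm-binding coat glycoprotein, measured 54.6, 59.2 and 68.2 FPKM in P and 70.9, 61.5 and 102 FPKM in NP (-0.34, adjusted p = 0.294), with overlap. Zp2, another coat glycoprotein, named after its values were seen, measured 6.55, 6.40 and 7.05 FPKM in P and 1.70, 4.94 and 2.06 FPKM in NP, without overlap (1.36, adjusted p = 0.0539). None of the 8 zona and sperm-egg genes tested was called, their median being 0.03, and 1 was called higher after median centring or quantile normalization. Oosp1, an oocyte-secreted protein named after its values were seen, was called lower, at 10.3, 9.41 and 10.8 FPKM in P and 47.2, 25.6 and 26.7 FPKM in NP (-1.65, adjusted p = 0.00810).

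The list of subcortical maternal complex and oocyte Nlrp genes mixed genes of the complex, a lattice under the egg membrane, with other oocyte genes. Its median was -0.58, with none called higher by limma. The 2 of 16 called lower were a share of 12.5%, that of all genes being 12.4%. Khdc3 measured 43.8, 39 and 41.7 FPKM in P and 90.3, 89.6 and 119 FPKM in NP (2.38-fold lower, adjusted p = 0.00464), a difference of -1.25 that fell within the fold limit after quantile normalization (-0.91) or median centring (-0.98). Ooep, the most abundant of the named members, measured 669, 847 and 969 FPKM in P and 1404, 1575 and 1582 FPKM in NP, without overlap but within the fold limit (-0.89, adjusted p = 0.0118), and it was called without P D (-1.01). Padi6, picked with its values in view, lay on the other side at 203, 150.4 and 174 FPKM in P and 108, 108 and 114 FPKM in NP (0.66, adjusted p = 0.0193; 1.02 and called after quantile normalization), so members of the complex were not shifted as a block. Nlrp5 was low, at 1.89, 1.8 and 1.63 FPKM in P and 1.91, 3.74 and 2.26 FPKM in NP (adjusted p = 0.254).

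Of 24 genes of mRNA storage and repression, 3 (12.5%) were higher and none was lower in P by limma. The shares of all genes were 3.64% and 12.4%, and the list's median was 0.11 against -0.15 for all genes. Nanos1, a translational repressor, measured 8.85, 7.37 and 8.51 FPKM in P and 2.96, 4.06 and 3.6 FPKM in NP (2.34-fold higher in P, adjusted p = 0.00782). Ybx1, a cold-shock domain mRNA-binding protein named after its values were seen, measured 5.73, 6.32 and 5.72 FPKM in P and 1.24, 2.73 and 1.99 FPKM in NP (adjusted p = 0.0134), and its call was lost without P B (0.0535), P C (0.0590) or P D (0.0504). Zar1, which binds maternal mRNAs and holds them in store, measured 225, 186 and 213 FPKM in P and 361, 236 and 360.2 FPKM in NP (-0.59, adjusted p = 0.0741). Btg4, the adaptor that brings the CCR4-NOT deadenylase to maternal mRNAs, measured 13.5, 13.1 and 13.2 FPKM in P and 20.8, 26 and 16.4 FPKM in NP (-0.64, adjusted p = 0.0562). In Zar1 and Btg4 all P values were below all NP values, yet neither passed the test.

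Among 36 genes of pronuclear reprogramming and DNA methylation, 2 (5.56%) were higher and 7 (19.4%) lower in P, with a median of -0.61. Zfp57, described above, was 1 of the 2 higher. Tet3, the dioxygenase that oxidizes 5-methylcytosine in the paternal pronucleus, measured 4.8, 5.15 and 5.45 FPKM in P and 3.97, 3.93 and 4.27 FPKM in NP (0.34, adjusted p = 0.168). Dppa3, which shields the maternal genome from this oxidation, measured 142, 131 and 168 FPKM in P and 217, 215 and 129 FPKM in NP. Dnmt1, the maintenance methyltransferase, measured 1.74, 1.71 and 1.52 FPKM in P and 2.3, 1.72 and 1.8 FPKM in NP. Both overlapped between fractions (-0.32 and -0.22, adjusted p = 0.364 and 0.511), and the sign of these uncalled differences turned under quantile normalization for both and under median centring for Dnmt1. Npm2, the histone chaperone of the sperm nucleus, measured 9.84, 11.9 and 12.3 FPKM in P and 18.4, 19.2 and 19.7 FPKM in NP (-0.76, adjusted p = 0.0149).

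Histone variants had the lowest median of the lists with over 10 tested genes: -1.18 for 14 genes, of which 7 were lower and none was higher in P. H2afx, the variant phosphorylated at DNA breaks, measured 4.26, 4.21 and 4.67 FPKM in P and 30.6, 12.4 and 20.2 FPKM in NP (4.51-fold lower in P, adjusted p = 0.00715). Cenpa, the centromeric histone, measured 2.49, 2.68 and 2.61 FPKM in P and 13, 10.4 and 8.37 FPKM in NP (4.02-fold lower, adjusted p = 0.00357). After median centring 4 of the 14 were called lower, and after quantile normalization 3 were called lower and 1 higher.

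The machinery of protein synthesis was not shifted as a whole: ribosomal proteins had medians below that of all genes and tRNA synthetases above it. Of 73 cytosolic ribosomal protein genes tested, 19 (26.0%) were lower and none was higher in P, and the median was -0.81 (-0.54 after median centring). Rps27l, a ribosomal protein S27 paralog, measured 1.89, 1.56 and 3.43 FPKM in P and 19, 18.3 and 12.6 FPKM in NP. Rps29, a protein of the small subunit, measured 2.17, 2.23 and 3.29 FPKM in P and 12.9, 8.38 and 12 FPKM in NP (7.57-fold and 4.33-fold lower, adjusted p = 0.00432 and 0.00464). Processed pseudogenes share sequence with ribosomal protein genes, and the authors' assignment of shared reads makes single levels uncertain. Mitochondrial ribosomal proteins had a median of -0.45, with 15 of 74 lower (20.3%) and 1 higher, but 4 lower and 3 higher after median centring. Mrps16 measured 2.17, 2.47 and 3.68 FPKM in P and 14.2, 7.32 and 9.44 FPKM in NP. Mrpl2 measured 6.25, 6.35 and 7.07 FPKM in P and 15, 16.8 and 16.5 FPKM in NP (-1.88 and -1.29, adjusted p = 0.0104 and 0.00407), and Mrpl2 fell within the fold limit after quantile normalization (-0.94). The aminoacyl-tRNA synthetases, large enzymes that load tRNAs, had the highest median of the lists with over 10 tested genes, 0.50 over 18 genes, of which Sars was called. Initiation factors were near the background of calls, with 1 of 43 higher (2.33%), 7 lower (16.3%) and a median of -0.19 that became 0.09 after median centring. Eif3i, a subunit of the factor that loads the small ribosomal subunit, measured 6.46, 5.93 and 6.92 FPKM in P and 22.5, 20.6 and 20.4 FPKM in NP (3.29-fold lower, adjusted p = 0.00190). Eef1a1, which delivers charged tRNA to the ribosome, measured 17, 21.3 and 18.2 FPKM in P and 8.25, 9.23 and 6.66 FPKM in NP (2.35-fold higher, adjusted p = 0.00701).

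Oxidative phosphorylation had the largest number of lower calls of any list, though not the largest share. Of 75 tested nuclear-encoded genes, 32 (42.7%) were lower and 1 was higher in P. The median was -1.01 (-0.74 after median centring, with 21 lower and 2 higher). Cox8a, a small subunit of cytochrome oxidase, measured 38.8, 26.8 and 43.1 FPKM in P and 272, 112 and 191 FPKM in NP (5.07-fold lower, adjusted p = 0.00706). Ndufb2, an accessory subunit of complex I, measured 2.65, 2.13 and 2.57 FPKM in P and 11.4, 6.34 and 11.2 FPKM in NP (3.83-fold lower, adjusted p = 0.00653). The exception was Ndufa10, a larger subunit of complex I, at 8.88, 7.2 and 9.05 FPKM in P and 2.67, 3.11 and 2.25 FPKM in NP (3.14-fold higher, adjusted p = 0.00464).

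In the proteasome, 7 of 40 genes were lower (17.5%) and 2 higher (5.0%) in P, the median being -0.17, or 0.11 after median centring. Psmb6, a catalytic subunit, measured 8.1, 7.48 and 9.41 FPKM in P and 51.4, 29.4 and 29.9 FPKM in NP (4.29-fold lower, adjusted p = 0.00448). Psmc2, an ATPase of the cap named with its values in view, measured 5.03, 5.27 and 5.33 FPKM in P and 1.39, 1.26 and 0.888 FPKM in NP (4.5-fold higher, adjusted p = 0.00395). RNA polymerase II and basal transcription genes showed 9 of 41 lower (22%), against 12.4% of all genes, and 1 higher, with a median of -0.48. Polr2c, a core subunit of the polymerase, measured 1.87, 1.63 and 1.69 FPKM in P and 15.5, 12.2 and 10.5 FPKM in NP (7.25-fold lower, adjusted p = 0.00140). Gtf2h5, the smallest part of TFIIH, measured 2.77, 3.01 and 3.31 FPKM in P and 9.12, 7.62 and 10.1 FPKM in NP (2.94-fold lower, adjusted p = 0.00432). Core splicing factors had 14 of 45 lower (31.1%) and 2 higher, with a median of -0.59. Snrpe, an Sm ring protein, measured 1.39, 1.2 and 1.66 FPKM in P and 20.3, 10.1 and 8.71 FPKM in NP (8.66-fold lower, adjusted p = 0.00407). Sf3b5 measured 9.94, 11.6 and 12.3 FPKM in P and 29.4, 27.1 and 30.3 FPKM in NP (2.57-fold lower, adjusted p = 0.00381; -0.94 and not called after quantile normalization).

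Of 33 chaperones, 3 (9.09%) were higher and 6 (18.2%) lower in P, with a median of -0.58 against -0.15 for all genes, and 3 were higher and 3 lower after median centring. Dnajb1, an Hsp40 co-chaperone, measured 152, 137 and 158 FPKM in P and 66.6, 61 and 56.7 FPKM in NP. Cct5, a subunit of the chaperonin ring, measured 12.6, 13.9 and 14.1 FPKM in P and 4.3, 4.62 and 2.47 FPKM in NP (2.42-fold and 3.69-fold higher, adjusted p = 0.00329 and 0.00646). Hspb1, a small heat shock protein, measured 3.84, 3.47 and 3.18 FPKM in P and 12.6, 9.87 and 15.2 FPKM in NP. Hsp90aa1 measured 8.35, 9.78 and 10.2 FPKM in P and 22.4, 29.8 and 22 FPKM in NP (3.54-fold and 2.6-fold lower, adjusted p = 0.00422 and 0.00529). Of 45 genes of the secretory pathway, 6 were higher and 6 lower, 13.3% each way against 3.64% higher and 12.4% lower of all genes, with a median of -0.21 that became 0.07 after median centring. Tram1, a translocon-associated membrane protein, measured 7.38, 6.12 and 7.45 FPKM in P and 3.05, 3.38 and 3.31 FPKM in NP (adjusted p = 0.00774). Its call was lost with 1 FPKM added. Sec61b, the small beta subunit of the translocon, measured 5.55, 4.47 and 5.95 FPKM in P and 17.7, 13 and 14.3 FPKM in NP. Dad1, a small subunit of the oligosaccharyltransferase, measured 12.3, 10.5 and 13.3 FPKM in P and 34.9, 22.8 and 32 FPKM in NP (-1.49 and -1.30, adjusted p = 0.00529 and 0.00835), and Dad1 fell within the fold limit after quantile normalization (-0.88). Tubulin and motor genes had 3 of 28 higher and 4 lower, with a median of -0.35, and 6 higher and 4 lower after median centring. The share called lower (14.3%) was near the 12.4% of all genes, and the share called higher was 10.7%. Kif22, a chromosome-arm kinesin, measured 17.7, 23.2 and 21 FPKM in P and 9.59, 8.6 and 10.9 FPKM in NP. Tubb3 measured 7.89, 5.61 and 6.14 FPKM in P and 19.3, 18.1 and 14.6 FPKM in NP (1.09 and -1.41, adjusted p = 0.00809 and 0.00633). Actb, cytoplasmic actin, measured 135, 128 and 176 FPKM in P and 85.6, 60.2 and 93.2 FPKM in NP, without overlap but within the fold limit (0.89, adjusted p = 0.0291), and it was called higher after quantile normalization (1.25) or median centring (1.16) and without NP D (1.01).

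**Figure D2:**
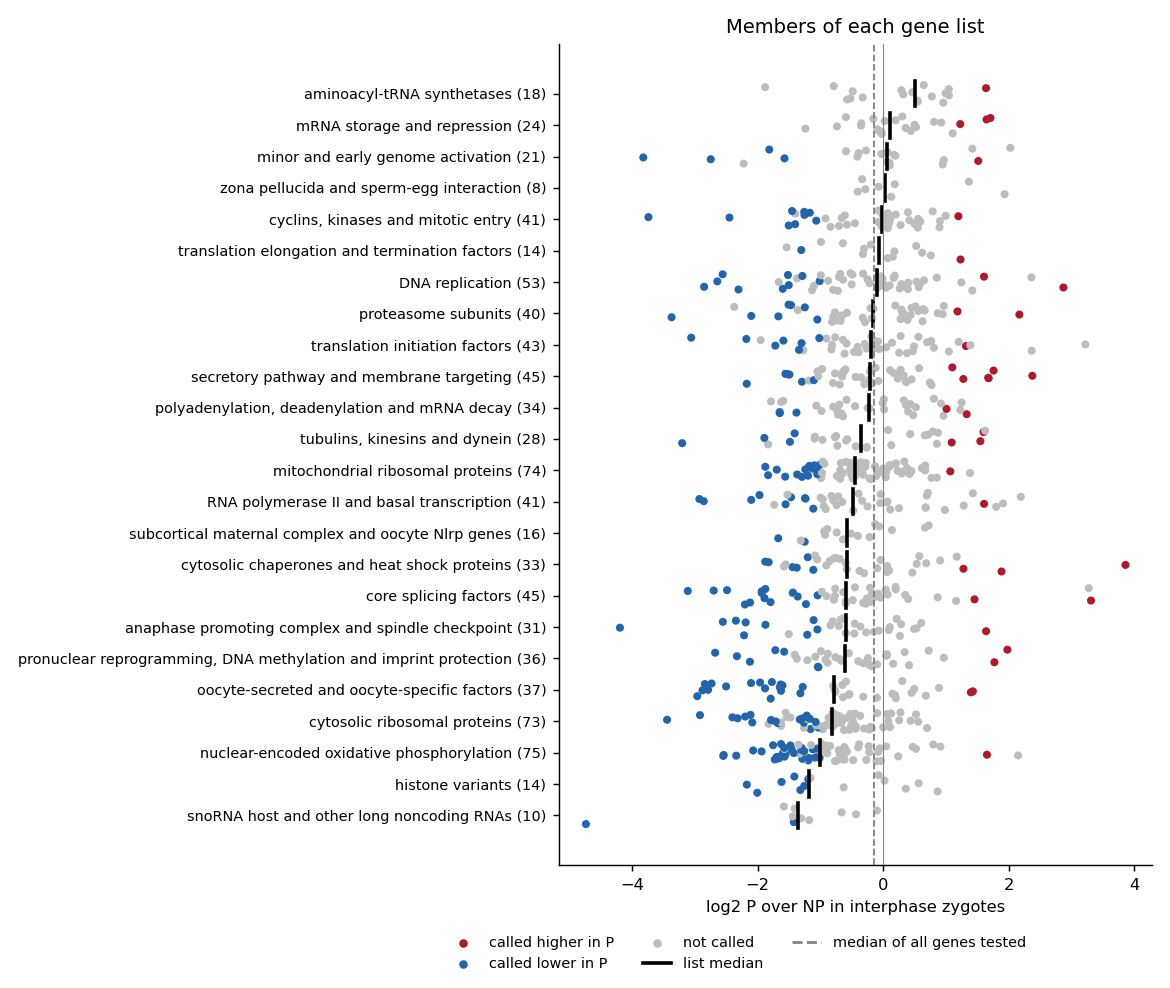
Difference between fractions (log2 P over NP) of every tested member of each gene list in interphase zygotes, with the number tested in parentheses; red members were called higher in P, blue lower, grey not called, the black bar is the list's median and the dashed line the median of all 9664 genes (-0.15). Histone variants, oxidative phosphorylation and cytosolic ribosomal proteins have medians of -1.18, -1.01 and -0.81, and aminoacyl-tRNA synthetases 0.50.

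A short coding sequence has room for few ribosomes. The differences were set beside coding length, taken for 7701 of 7786 tested protein-coding genes from the GENCODE vM21 annotation of GRCm38. The shorter the coding sequence, the lower was the P level, up to about 900 bases. Genes of up to 300 bases (n = 210) had a median of -1.07, and 41.0% of them were lower and 0.476% higher in P. From over 300 to 600 bases (n = 1124) the median was -0.56 with 21.3% lower, and from over 600 to 900 bases (n = 1270) it was -0.16 with 11.8% lower. Above this the medians were 0.07 (to 1500 bases), 0.11 (to 2400 bases) and -0.01 (over 2400 bases), with 7.99%, 7.39% and 7.78% lower. Across the 7701 genes the Spearman correlation with coding length was 0.20, that with 3′ UTR length 0.12 and that with 5′ UTR length 0.02, as descriptions over genes of the same 6 libraries.

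Coding length moved with several of the lists above. The 53 cytosolic ribosomal protein genes of up to 600 bases had a median of -0.99 with 34.0% lower, and the 20 longer ones -0.37 with 5.0% lower. For all protein-coding genes the same classes had medians of -0.64 (24.4% lower, n = 1334) and 0.01 (8.56% lower, n = 6367). Respiratory genes of up to 600 bases had a median of -1.19 with 56.4% lower (n = 55), and the 20 longer ones -0.23 with 5.0% lower. Core splicing factors had -1.40 in the short class (n = 18) and -0.14 in the long one (n = 27). RNA polymerase II and basal transcription genes had -1.18 (8 of 14 called lower) and 0.04 (1 of 27 called lower). Oocyte-specific genes had medians of -1.96 in the short class (11 of 13 called lower) and -0.57 in the long one (6 of 24 called lower). Anaphase and checkpoint genes had -0.90 (3 of 8 called lower) and -0.45 (6 of 23 called lower). In other lists the medians of the short and the long class were close. They were -0.18 (n = 6, none called lower) and -0.19 (n = 37, 7 called lower) for initiation factors. For histone variants they were -1.19 (n = 11) and -1.16 (n = 3), and for tubulin and motor genes -0.35 (n = 4) and -0.42 (n = 24). The smaller class of each held too few genes to say whether length mattered there. Cdc20, with 1500 coding bases, and Fpgs, with 1764, lie in length classes whose medians are close to 0. The part of coding length in these differences was not tested.

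**Figure D3:**
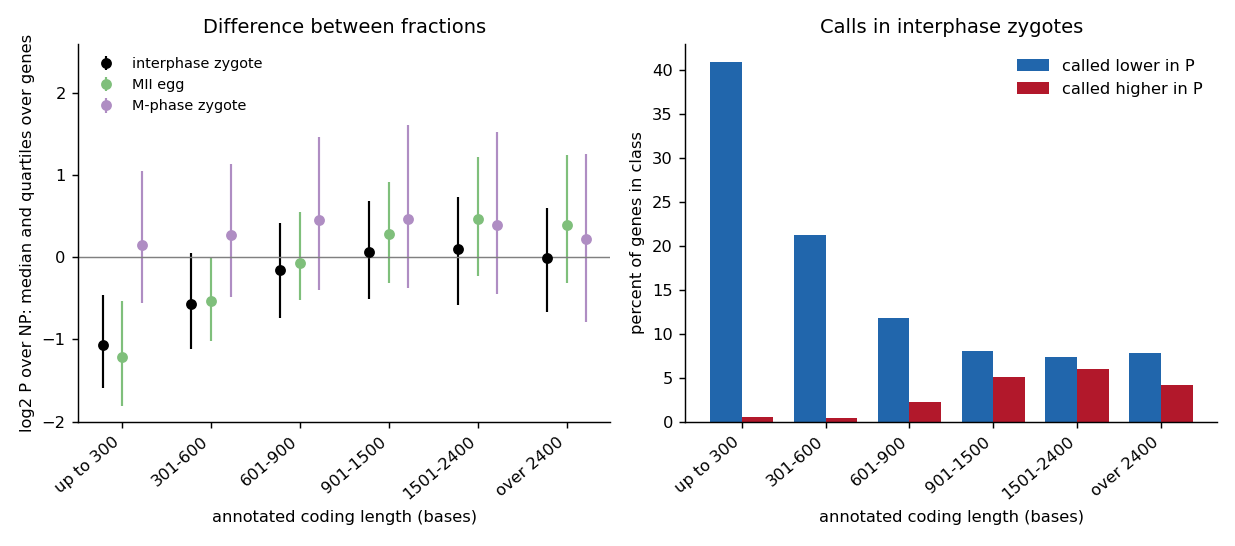
Left, median and quartiles of the log2 P over NP difference by annotated coding length in interphase zygotes (black), MII eggs (green) and M-phase zygotes (purple); right, percent of genes in each class called lower (blue) or higher (red) in P of interphase zygotes. Medians rise from -1.07 to about 0 with length in interphase zygotes and from -1.21 to 0.39 in MII eggs, but stay between 0.15 and 0.47 in M-phase zygotes.

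The 3′ ends were read for the cytoplasmic polyadenylation element (CPE), the U-rich sequence bound by CPEB, spelled TTTTAT or TTTTAAT on the sense strand of the DNA. It was sought in the last 100 bases of the annotated 3′ UTR of the 7218 tested genes whose 3′ UTR is that long. The windows below are shown as examples, chosen with values in view, of named genes that carry a CPE and were called lower or higher in P; capitals mark the CPE, and the windows run 5′ to 3′ in transcript sense from GENCODE vM21.
Fpgs: ttaaacccTTTTATtTTTTATtttttgtaa
Omt2a: actgtgatTTTTATtattgccatgtccagc
Cks2: aatgcctgTTTTATtttacctgttttgtta
D6Ertd527e: gtacatttTTTTATtattgtttgtttattt
Eef1a1: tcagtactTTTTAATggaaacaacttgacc
Plat: tatttataTTTTAATctattttagttttta
The windows lie in GRCm38 at chr2:32682633-32682662 on the minus strand for Fpgs, chr9:78312055-78312084 on the minus strand for Omt2a, chr13:51650602-51650631 on the plus strand for Cks2, chr6:87112945-87112974 on the plus strand for D6Ertd527e, chr9:78478503-78478532 on the minus strand for Eef1a1 and chr8:22782748-22782777 on the plus strand for Plat, each in the 3′ UTR. In the first 4 genes P was lower, and in Eef1a1 and Plat it was higher. Fpgs, folylpolyglutamate synthase, measured 2.78, 2.0 and 2.38 FPKM in P and 25.9, 23.6 and 17.3 FPKM in NP (9.27-fold lower, adjusted p = 0.00140). Plat, tissue plasminogen activator, whose mRNA is a classic example of dormancy in the mouse oocyte, was picked with its values in view and measured 25.1, 28 and 27.5 FPKM in P and 9.03, 11.4 and 9.42 FPKM in NP (2.72-fold higher, adjusted p = 0.00361).

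A CPE stood in 19.1% of all 7218 genes, in 27.8% of the 789 called lower and in 17.0% of the 276 called higher. The 1381 genes with a CPE had a median of -0.22 and 15.9% were lower in P, against -0.04 and 9.77% in the 5837 without. With coding sequences over 600 bases alone, the values were -0.13 and 13.6% with a CPE (n = 1187) and 0.05 and 7.25% without (n = 4828). A Pumilio element, TGTANATA, stood in 4.90% of all genes, 6.21% of those lower and 5.80% of those higher. The AU-rich pentamer ATTTA stood in 22%, 22.9% and 19.9%, and the polyadenylation signal AATAAA in 66.1%, 70.3% and 61.2%. These shares are descriptions of annotated 3′ ends, which need not be the ends used in the zygote, and a match is no evidence of binding.

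Start sites of ribosomal protein genes are known for a terminal oligopyrimidine (TOP) tract, a C followed by an unbroken run of C or T. Through it their translation responds to mTOR. Annotated starts need not be the starts used in the zygote, so the search below can miss a tract. With at least 4 pyrimidines after the C at the annotated RefSeq start (GRCm38.p6), the tract was found in 3.01% of 27025 genes and in 14 of 61 (23.0%) cytosolic ribosomal protein genes of the table. The starts of 4 of these are shown, with 10 bases before the start and 20 from it, the tract in capitals.
Rplp2: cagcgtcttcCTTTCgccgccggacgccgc
Rps15a: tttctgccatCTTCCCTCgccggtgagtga
Rps10: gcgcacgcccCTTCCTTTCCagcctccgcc
Rps6: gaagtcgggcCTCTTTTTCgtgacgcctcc
They lie at chr7:141447641-141447670 on the plus strand (Rplp2), chr7:118116128-118116157 on the minus strand (Rps15a), chr17:27635225-27635254 on the minus strand (Rps10) and chr4:86857348-86857377 on the minus strand (Rps6). Rplp2, an acidic stalk protein, measured 0.575, 0.360 and 0.908 FPKM in P and 9.54, 4.48 and 5.66 FPKM in NP (10.9-fold lower, adjusted p = 0.00510). Rps15a measured 0.995, 0.523 and 0.977 FPKM in P and 6.22, 2.7 and 3.77 FPKM in NP. Rps10 measured 0.973, 1.12 and 0.987 FPKM in P and 2.99, 2.18 and 2.61 FPKM in NP (-2.32 and -1.33, adjusted p = 0.0116 and 0.010). The call of Rps10 was lost with 1 FPKM added. Rps6, the substrate of S6 kinase, measured 2.77, 2.93 and 2.96 FPKM in P and 2.87, 5.3 and 4.03 FPKM in NP, which overlapped (-0.45, adjusted p = 0.249). These 4 genes were chosen with their values in view. The 12 tested ribosomal protein genes with a tract at the annotated start had a median of -1.09 and 4 were lower. The 42 without had -0.81 and 9 were lower. Since annotated starts can miss a tract, these classes do not separate genes that carry one from genes that do not. Over all tested genes the medians were -0.18 with a tract (n = 191) and -0.08 without (n = 5933).

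The next question was whether the zygote's distribution between fractions was other than that of the MII egg, the stage before fertilization. MII eggs were matured in culture and zygotes were taken from mated females, so maturation in culture and stage cannot be told apart. In a single fit of 12 libraries, the difference of differences was called in 242 of 9336 genes (2.59%), 41 above 0 (0.439%) and 201 below 0 (2.15%). Below 0 means that P over NP was lower in the zygote. The median over all genes was -0.23, and after quantile normalization, where it was 0.03, 74 genes were above and 173 below. Cdc20 in MII eggs measured 130.4, 136 and 157 FPKM in P and 100.2, 117 and 121 FPKM in NP, whereas in zygotes the P libraries held 1.65 to 3.37 FPKM. Its P over NP difference on the log2 scale was 0.32 in eggs and -4.19 in zygotes, a change of -4.52 ± 0.34 (SE, adjusted p = 0.000313). Fpgs in eggs measured 45.9, 61.8 and 40.4 FPKM in P and 45, 33.7 and 31.1 FPKM in NP, a change of -3.64 ± 0.33 (SE, adjusted p = 0.000926). D6Ertd527e measured 89.3, 77.8 and 23.3 FPKM in P and 185, 112 and 68.5 FPKM in NP, a change of -3.69 ± 0.70 (SE, adjusted p = 0.0200), which was not called without zygote P D or MII P B (0.0536 to 0.0605). For Cdc20 and Fpgs the egg held more in P than in NP on average, with overlapping values for Fpgs, so that the order of the means turned.

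Genes that gained in P relative to NP were fewer. Ldhb, a subunit of lactate dehydrogenase, measured 42.9, 23.3 and 31.6 FPKM in P and 115, 135 and 62.6 FPKM in NP in eggs and 383, 354 and 416 FPKM in P and 302, 316 and 312 FPKM in NP in zygotes. In eggs all P values were below NP and in zygotes all were above, a change of 1.95 ± 0.39 (SE, adjusted p = 0.0259). This call was lost without zygote P B, P C, P D, NP B or NP D or MII P B or P C (adjusted p = 0.0524 to 0.0789), and that of Swi5 below without zygote P D (0.0547). Swi5, a recombination factor, measured 1.0, 1.63 and 1.13 FPKM in P and 7.57, 6.98 and 5.37 FPKM in NP in eggs and 18.3, 18.3 and 23 FPKM in P and 29.6, 24.5 and 33.9 FPKM in NP in zygotes (change 1.87 ± 0.33, SE, adjusted p = 0.0156). Pecr, a peroxisomal enoyl-CoA reductase, measured 8.12, 6.36 and 8.09 FPKM in P and 14.9, 17.9 and 14.3 FPKM in NP in eggs and 44, 54.9 and 58.8 FPKM in P and 38.4, 43.9 and 38.3 FPKM in NP in zygotes (change 1.44 ± 0.24, adjusted p = 0.0119). Bmp15 changed by 1.36 ± 0.25 (SE, adjusted p = 0.0179), from 51.1, 59.6 and 42.2 FPKM in P and 125, 131 and 87.2 FPKM in NP in eggs. In Swi5 the zygote's P libraries stayed below NP, so the change was a smaller deficit and not an excess.

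Against M-phase zygotes, the next phase of the same cell cycle, 402 of 8661 genes (4.64%) were called, 44 above 0 (0.508%) and 358 below 0 (4.13%). The median over all genes was -0.64, and after quantile normalization, where it was 0.04, 97 genes were above and 171 below. Interphase zygotes were collected at isolation, whereas embryos kept for later stages were cultured and M-phase embryos were treated with nocodazole. The drug, the culture and the phase therefore cannot be told apart. Cdc20 in M-phase zygotes measured 214, 111 and 172 FPKM in P and 189, 102 and 171 FPKM in NP, with overlapping fractions, and the change was -4.30 ± 0.48 (SE, adjusted p = 0.00109). Fpgs measured 50.4, 69.6 and 51.5 FPKM in P and 53, 40.2 and 71.9 FPKM in NP (change -3.29 ± 0.37, SE, adjusted p = 0.00117). Polr2c measured 50.9, 68.5 and 48.9 FPKM in P and 70.9, 72.1 and 60.0 FPKM in NP (change -2.58 ± 0.30, SE, adjusted p = 0.00129). In all 3 genes every P value of the interphase zygote was below every P value of the MII egg and the M-phase zygote, and the same held for NP. In both comparisons the same 6 zygote libraries enter, so they are not independent of each other.

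The change of Exosc6 and that of Rps9 rested on low values. Exosc6 in M-phase zygotes measured 3.41, 7.23 and 2.82 FPKM in P and 14.4, 4.6 and 19.1 FPKM in NP, and its change of -7.98 ± 1.64 (SE, adjusted p = 0.0209) depends on the offset in 2 interphase P libraries. Rps9, a small-subunit protein, measured 0.352, 1.26 and 0.372 FPKM in P and 0.0666, 0.0920 and 0.0682 FPKM in NP in M-phase zygotes, below 0.1 FPKM in all NP libraries, and 7.76, 11.7 and 11.2 FPKM in P and 13.2, 17.7 and 23.5 FPKM in NP in interphase zygotes (change -3.69 ± 0.72, SE, adjusted p = 0.0164, not called after quantile normalization). In the other direction, Arl6ip1, an endoplasmic reticulum membrane protein, measured 29.7, 28.7 and 33.8 FPKM in P and 226, 171 and 139 FPKM in NP in M-phase and 128, 119 and 139 FPKM in P and 70.4, 93.8 and 69.7 FPKM in NP in interphase zygotes (change 3.25 ± 0.28, SE, adjusted p = 0.000359). Pja1 measured 3.99, 1.17 and 4.94 FPKM in P and 7.22, 21.1 and 8.77 FPKM in NP in M-phase zygotes (change 4.08 ± 0.91, adjusted p = 0.0296). Hsp90aa1 measured 0.766, 3.17 and 1.06 FPKM in P and 23.2, 23.3 and 36.3 FPKM in NP (change 2.92 ± 0.64, adjusted p = 0.0270). Pja1 lost this call without zygote P B, P C, P D, NP B or NP D (adjusted p = 0.0629 to 0.0821), Hsp90aa1 without these or M-phase P A or P C (0.0509 to 0.0794), Exosc6 without zygote P B or NP D or M-phase P B (0.0514 to 0.0566) and Rps9 without zygote P B or NP D (0.0535 to 0.0588). Actb also had more in NP than in P in M-phase zygotes, at 69.9, 109.6 and 129.7 FPKM in P and 145, 215 and 157 FPKM in NP, and the reverse in interphase (change 1.65 ± 0.37, adjusted p = 0.0331).

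**Figure D4:**
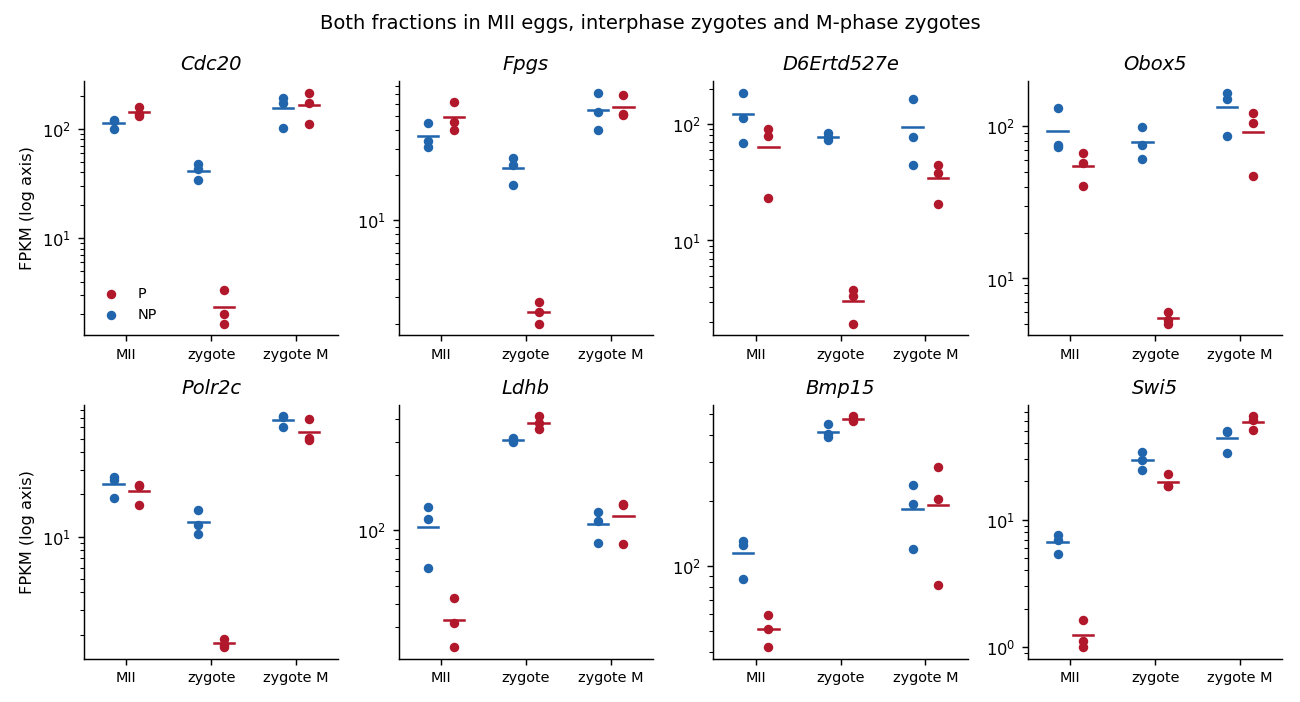
FPKM on log axes, which differ between panels, in P (red) and NP (blue) libraries of MII eggs, interphase zygotes and M-phase zygotes, 3 libraries each, with the mean as a short line. Cdc20, Fpgs, D6Ertd527e, Obox5 and Polr2c are low in P of interphase zygotes, while Ldhb, Bmp15 and Swi5 have lower P than NP in MII eggs, as Swi5 also does in interphase zygotes.

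Coding length was set beside the other stages as well. Genes of up to 300 coding bases had medians of -1.07 in interphase zygotes, -1.21 in MII eggs (n = 203) and 0.15 in M-phase zygotes (n = 198). Genes of over 1500 to 2400 bases had 0.11, 0.46 (n = 1553) and 0.40 (n = 1413). The contrast of short against long messages was therefore seen in interphase zygotes and MII eggs and was small in M-phase zygotes, a difference between stages that was not tested.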

How the data were processed

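Zygote P and NP libraries were grouped by their titles. The authors trimmed reads with Trim Galore 0.4.1, mapped them to GRCm38 with STAR 2.5.3a and quantified them as FPKM, and the submitters' processing notes also name Partek. The methods name RefSeq genes as the reference, while the deposited FPKM table (23125 genes) carries Ensembl-style biotypes. Deposited FPKM values are normalized, include an offset of 0.01 and hold no read counts, so depth is unknown and no count test was possible; mitochondrially encoded mRNAs were not used here. The library kit does not mark strand, so overlapping antisense genes cannot be told apart. Whole-transcriptome libraries were not analysed here.

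From these, log2 FPKM with nothing added were fitted with limma 3.58.1 (empirical Bayes with trend, R 4.3.3) on the 6 zygote libraries, or 12 for a difference between stages, for genes whose geometric mean reached 0.1 FPKM. Tests were two-sided, with Benjamini-Hochberg adjustment over all genes tested; a call needed an adjusted p under 0.05 and a log2 difference beyond 1. Positive differences mean higher in P. Scripts were tested on simulated data. Sequences and lengths came from GENCODE vM21 (1 transcript per gene, principal isoform first; 20777 of 22193 matched symbols had the table's position) and RefSeq promoters, read with Python 3 and pandas.

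Named genes were the 6 highest and 6 lowest called protein-coding genes whose mean reached 10 FPKM, with no overlap and a proper symbol; up to 2 called rises and 2 falls per list at a mean of 5 FPKM or more; 18 fixed anchors; and 3 genes in each direction per stage comparison. Genes named with their values in view are marked as such. Members and lists were chosen with earlier results of these data known. Where letters are only replicate names, p-values measure the spread between these libraries. Alternatives were an added 0.1 or 1 FPKM, no filter or a mean minimum of 1 FPKM, a filter over 36 libraries, all 36 libraries in the fit, a replicate block, quantile normalization, median centring, protein-coding genes only and each library left out.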

Additional observations from a re-analysis of the deposited data

Results flagged for a closer look

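The fraction difference of the interphase zygote differed from that of the MII egg in 242 genes by the test of the difference itself. Among called protein-coding genes that met the level and no-overlap conditions in zygotes, the most negative changes were those of Cdc20 (-4.52), D6Ertd527e (-3.69) and Fpgs (-3.64 on the log2 scale), and the most positive those of Ldhb (1.95), Swi5 (1.87) and Pecr (1.44). It differed from that of the M-phase zygote in 402 genes. Under the same conditions the most negative were Exosc6 (-7.98, resting on the table's offset), Cdc20 (-4.30) and Rps9 (-3.69), and the most positive Pja1 (4.08), Arl6ip1 (3.25) and Hsp90aa1 (2.92). Cdc20 kept its call in both comparisons in each of the fits that left out 1 of the 12 libraries. Fpgs and Pecr kept theirs against the MII egg and Arl6ip1 against the M-phase zygote. The others lost the call in some of these fits.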

How the results depend on the processing

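All 352 higher and 1198 lower calls rest on the spread within zygote libraries. With all 36 libraries sharing 1 estimate of the spread, 11 genes were higher and 99 lower, and the stage differences numbered 4 (MII) and 18 (M-phase zygote). With 1 FPKM added the counts were 152 higher and 635 lower, and 229 for the M-phase zygote. Quantile normalization gave 752 higher, and median centring 699 higher and 758 lower. Leaving out 1 library gave 124 to 607 higher and 620 to 1252 lower. The low ends came without P C (124 higher, 620 lower), P B (129, 622) and P D (139, 762), and the high count of 607 without NP C. For the stage differences the ranges were 103 to 371 (MII; 103, 116 and 138 without zygote P C, P D and P B, and 371 without MII NP C) and 203 to 822 (M-phase zygote; 203 and 221 without zygote P C and P B, 262 without zygote NP D, and 671, 822 and 759 without M-phase NP A, B and C). The cause was not tested. Without a filter 502 genes were higher and 813 lower.

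Letters may pair the fractions: deviations from group means correlated at 0.028 to 0.077 within a letter and -0.076 to 0.013 between letters, and all 6 libraries were closest to their own letter. With a replicate block 243 genes were higher and 957 lower, and the stage differences numbered 115 (MII) and 349 (M-phase zygote).

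Uncalled differences turned sign for Dppa3 (0.12 under quantile normalization) and Dnmt1 (0.033 under quantile normalization, 0.057 under median centring). Of 72 named genes called, 58 stayed called whichever library was left out and 15 under every alternative. All 15 were lower in P, and every named gene called higher lost its call with all 36 libraries in the fit. With 1 library left out, 14 lost the call at least once, by the adjusted p or by the fold limit, and their highest adjusted p was Pja1 without P D (adjusted p = 0.0814), Lipt1 without P C (adjusted p = 0.0544), Klf17 without P B (adjusted p = 0.0545), Mrpl45 without P B (adjusted p = 0.0932), Eif5 without P C (adjusted p = 0.104), Eif5a without P C (adjusted p = 0.0566), Dcp1a without P B (adjusted p = 0.0539), Asf1b without P C (adjusted p = 0.0489), Asf1a without P B (adjusted p = 0.0534), Obox2 without P C (adjusted p = 0.0616), Tubb5 without P B (adjusted p = 0.140), Ccna2 without P B (adjusted p = 0.0527), Pcna without P C (adjusted p = 0.0695) and Ybx1 without P C (adjusted p = 0.0590). Asf1b lost its call by the fold limit, without P B or NP C. With a replicate block Eif5 lost its call. After quantile normalization Mrpl2 (-0.94), Sf3b5 (-0.94), Dad1 (-0.88), H1foo (-0.97) and Khdc3 (-0.91) fell within the fold limit, as Khdc3 did after median centring (-0.98). Eif5, Eif5a, Asf1a, Asf1b and Pcna also lost the call after quantile normalization, and all of these but Eif5a after median centring. Uncalled in the main comparison but called in some alternatives were also Arl6ip1 (1.11 after quantile normalization, 1.01 after median centring) and Rps9 (-1.02 without NP B).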

Other observations

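Of 7786 protein-coding genes tested, 889 (11.4%) were lower and 301 (3.87%) higher in P, and the classes below were not tested against them. Of 963 processed pseudogenes tested, 209 (21.7%) were lower and 24 higher in P, with a median of -0.68; they share reads with their parent genes, many of which are ribosomal protein genes, so single levels are uncertain. Of 296 lincRNAs, 21 (7.09%) were lower and 8 higher, with a median of -0.24, and of 204 antisense RNAs 22 (10.8%) were lower and 2 higher, with a median of -0.39. The list of snoRNA hosts and long noncoding RNAs had a median of -1.36 over 10 tested members, all with values below 0. The 2 called lower were Gas5, at a low level, and D6Ertd527e, which the table annotates as protein coding.

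Elob, elongin B, was at 0.284 ± 0.028 FPKM in P and 0.637 ± 0.202 FPKM in NP (SD, n = 3 per fraction), which did not pass the test (adjusted p = 0.0750) but was called lower without NP C (-1.38, adjusted p = 0.0313). Genes of up to 600 coding bases with a 3′ UTR of up to 500 bases had a median of -0.89 (n = 636), and those with a longer 3′ UTR -0.39 (n = 698). For coding sequences over 600 bases the medians were -0.08 (n = 2075) and 0.06 (n = 4292).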
